A study of Danio rerio with 7 samples.

Results

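The mitochondrial genome of the zebrafish codes for 7 subunits of respiratory complex I, and all 7 of their genes (MT-ND1, MT-ND2, MT-ND3, MT-ND4, MT-ND4L, MT-ND5 and MT-ND6) were found among 16394 gene rows by a symbol that starts with mt-nd. The mitochondrial genes for subunits of other complexes were 6: MT-CO1, MT-CO2 and MT-CO3 of cytochrome c oxidase, MT-ATP6 and MT-ATP8 of ATP synthase, and MT-CYB of complex III. Levels were read in sorted ventricular wells with at least 1000 transcripts besides spike-in RNA and these 13 mitochondrial genes. Of 2688 wells, 1033 passed, and they held 46990 transcripts of the 7 genes.

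Complex I oxidises NADH, passes the electrons to ubiquinone and pumps protons across the inner mitochondrial membrane. The 7 mitochondrially encoded subunits form the core of its membrane arm, while the remaining subunits are imported from the cytosol. In vertebrates both strands of the mitochondrial genome are transcribed as long precursors that are cut into single RNAs. MT-ND6 lies on the opposite strand from the other members, and MT-ND4L and MT-ND4 overlap and stay together on 1 mature RNA. Heart muscle is rich in mitochondria and so in these RNAs.

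The cells came from adult ventricles of Tg(nppa:mCitrine) fish 7 days after cryoinjury, from 12 hearts per genotype. The reporter in this line stands under the promoter of nppa, which codes for a natriuretic peptide, so a plate sorted on it holds cells that switched the reporter on and not the whole ventricle. There were 3 plates from Tg(nppa:mCitrine);hmga1a+/+ fish (wild type) and 4 from Tg(nppa:mCitrine);hmga1a-/- fish (mutant), each of 384 wells with 1 sorted cell. The sources used here do not give age, sex or the nature of the hmga1a allele, and an uninjured group was not analysed here. The sort was on mCitrine according to the series text and on mCherry according to the protocol, and which of them marked the cells was not settled here. The series text also counts 768 cells per genotype and 1 wild-type plate lost, whereas 1152 wells were deposited for wild type and 1536 for the mutant. Plates cannot be matched to animals from the labels. A p-value here therefore sets a difference against the scatter among plates, not among animals, and that scatter may be technical. Run 1 held wild-type plate 1 and mutant plates 1 and 2, and run 2 held wild-type plates 2 and 3 and mutant plates 3 and 4. Values by plate are given below in the order wild type 1, 2 and 3, then mutant 1 to 4.

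Plates held 310267 to 808070 estimated transcripts, of which 260496 to 753855 lay in kept wells. Kept wells were clustered without the mitochondrial genes matched by symbol, and 939 fell into clusters called cardiomyocyte-like. All 12 cardiomyocyte markers matched to a gene were detected in them, at 1886 to 1984 per 10000 transcripts in wild type, against 1562 to 1758 in mutant plates. The other 94 wells were left unnamed. Of these, 66 formed a cluster with a median cardiomyocyte marker share of 1.73%. It was led by ENSDARG00000080337 and ENSDARG00000082753, which have no symbol and so stayed in the clustering and in the minimum per well. The other 28 unnamed wells were led by krt8, a keratin gene, and cd74a, a leukocyte marker. The hmga1a transcript stood at 47.5, 122.2 and 84.3 CPM (counts per 1000000) in wild type, against 59.2, 39.6, 10.1 and 37.6 CPM in mutant cardiomyocyte-like sums. The genotypes overlapped, since mutant plate 1 lay above wild-type plate 1 (log2 fold change -1.42, SE 0.49, edgeR adjusted p = 0.133).

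In captured transcripts the 7 genes spanned more than 2 orders of magnitude, in nearly the same order in every plate. MT-ND4, a proton-pumping subunit of the membrane arm, was the member counted most often, with 12.6% ± 1.34 of all mitochondrial transcripts (SD, n = 7 plates). MT-ND2, a further antiporter-like subunit, followed at 7.33% ± 0.525. MT-ND1, which helps form the ubiquinone site, stood at 4.37% ± 0.570. MT-ND3, a small subunit at the junction with the peripheral arm, held 2.07% ± 0.606, and MT-ND5, the distal antiporter-like subunit, held 1.504% ± 0.488. MT-ND4L, a small subunit next to MT-ND2 and MT-ND6 in the membrane arm, held 0.149% ± 0.0470, and MT-ND6, a further small membrane-arm subunit, held 0.0996% ± 0.0458. Each count is a tagged molecule, whatever the length of the RNA, so these shares compare numbers of captured molecules assigned to each gene. MT-ND4L shares its mature RNA with MT-ND4 and has no 3′ end of its own. How well each RNA was captured was not measured, so this order need not be that of the RNA levels.

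The order MT-ND4 over MT-ND2 over MT-ND1 over MT-ND3, and of MT-ND5 over MT-ND4L, held in 7 of 7 plates. MT-ND3 exceeded MT-ND5 in 5 of 7 plates and MT-ND4L exceeded MT-ND6 in 5 of 7, so neither order held in every plate. In the run 1 plates MT-ND3 took 2.95%, 2.59% and 2.54%, against 1.07%, 1.20% and 1.06% for MT-ND5. In the run 2 plates the order of MT-ND3 and MT-ND5 varied. Among all 13 mitochondrial genes MT-ND4 came after MT-ATP6 at 20.8% and MT-CO2 at 18.1%, and MT-ND6 ranked last. The counts behind the members differed as widely. Kept wells held 21207 transcripts of MT-ND4, 12258 of MT-ND2, 7280 of MT-ND1, 3382 of MT-ND3, 2450 of MT-ND5 and far fewer of the last 2. With 19 to 63 transcripts of MT-ND4L and 8 to 45 of MT-ND6 per plate, the 95% exact binomial interval of the MT-ND6 share in wild-type plate 1 ran from 0.0239% to 0.109%, counting error only. MT-ND4 was counted 65.2 to 181.2 times as often as its neighbour MT-ND4L across plates. Since both stay together on 1 mature RNA, this ratio does not compare the levels of separate RNAs. MT-ND5 was counted 8.91 to 23.5 times as often as MT-ND6. How strand and overlapping genes were handled in counting is not stated, so reads of MT-ND4L and MT-ND4, and of MT-ND5 and MT-ND6, may not be fully separated.

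**Figure D1:**
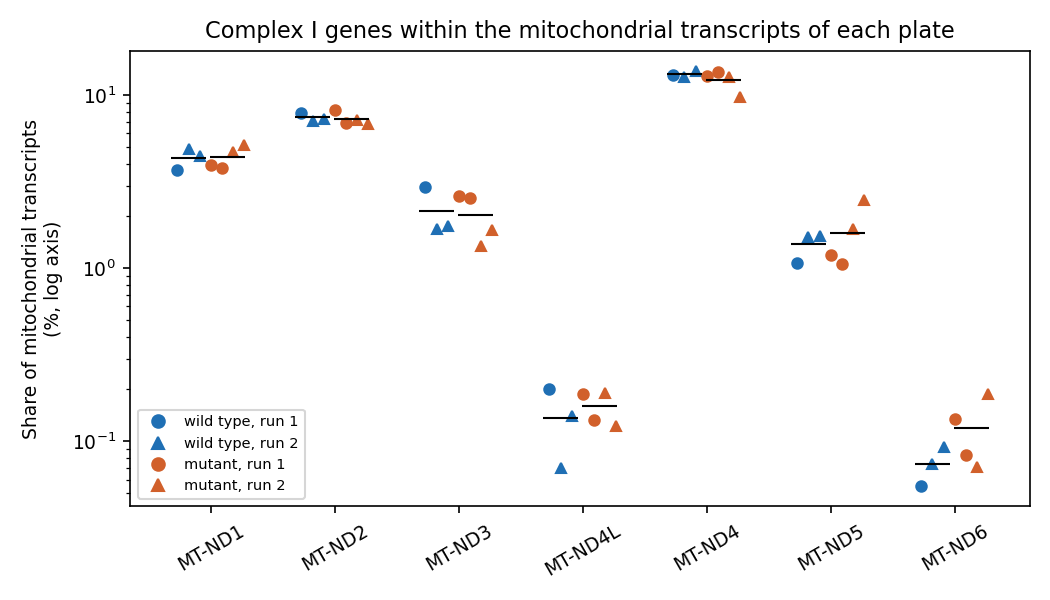
Share of each plate's mitochondrial transcripts taken by each complex I gene in kept wells (percent, log axis). Points are plates (circles run 1, triangles run 2), and lines are genotype means. Genotypes overlap for every gene, while the run 1 plates lie above the run 2 plates for MT-ND3 and below them for MT-ND1 and MT-ND5.

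The genotypes did not differ detectably in how the mitochondrial transcripts were divided. The 7 genes together made up 28.97%, 27.998% and 28.95% of mitochondrial transcripts in wild-type plates, against 29.1%, 28.2%, 27.8% and 26.1% in mutant plates. The means were 28.6% ± 0.556 (SD, n = 3) and 27.8% ± 1.26 (SD, n = 4; exact permutation p = 0.457, two-sided). Within run 1 mutant minus wild type came to -0.323 percentage points, and within run 2 to -1.51. Over 8 such tests, 7 genes and their sum, every adjusted exact permutation p was 0.914. These tests pooled the runs, without a run term. Mutant minus wild type within run 1 and run 2 was 0.148 and 0.242 percentage points for MT-ND1, and -0.333 and -0.239 for MT-ND2. It was -0.381 and -0.216 for MT-ND3, 0.174 and -1.94 for MT-ND4, and -0.0400 and 0.0514 for MT-ND4L. For MT-ND5 it was 0.0548 and 0.541, and for MT-ND6 0.0537 and 0.0461. With 3 plates against 4 the smallest possible p is 0.0571, so no share test of this size can pass 0.05. Mutant plate 4 had the lowest MT-ND4 share, 9.75% against 12.7% to 13.7% elsewhere, and the highest MT-ND5 share, 2.47% against 1.06% to 1.67%.

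The sequencing runs did not overlap for 3 of the 7 members. A share of mitochondrial transcripts exists only for mitochondrial genes, so no rate over all genes can be set beside this count. MT-ND3 took 2.95%, 2.59% and 2.54% of mitochondrial transcripts in the run 1 plates and 1.68%, 1.76%, 1.34% and 1.66% in the run 2 plates. Its run means were 2.69% ± 0.222 (SD, n = 3) and 1.61% ± 0.184 (SD, n = 4). MT-ND1 went the other way, from 3.81% ± 0.124 in run 1 to 4.79% ± 0.293 in run 2, and MT-ND5 from 1.11% ± 0.0754 to 1.80% ± 0.450. For all 3 genes the runs did not overlap, whatever the genotype (exact permutation p = 0.0571 each, the smallest possible, adjusted p = 0.16 over 14 tests). MT-ND2, MT-ND4, MT-ND4L and MT-ND6 overlapped between runs. Outside complex I the runs also stood apart for MT-CO1, at 9.62% in run 1 and 14.3% in run 2, and for MT-ATP8, at 0.200% and 0.112%. This comparison was chosen after the values were seen, and run, plate and depth cannot be told apart in it.

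In an edgeR fit of cardiomyocyte-like sums, MT-ND3 was the 1 member of 7 called between runs, against 2.17% of the 2164 genes tested. It was lower in run 2 by a log2 fold change of -1.07 (SE 0.16, edgeR adjusted p = 0.00182), and it passed in all 8 alternatives tried. At an unadjusted p under 0.05, 2 members and 15.5% of genes passed. MT-ND1 and MT-ND5 stood at 0.25 (SE 0.16) and 0.34 (SE 0.17) and did not pass. In all kept wells MT-ND2 also passed (log2 fold change -0.69, edgeR adjusted p = 0.0252), where 4.65% of genes were called, while MT-ND1 changed sign to -0.23. There 5 of the 6 other mitochondrial genes were called as well, with a median of -0.67, beside -0.69 over the members. In cardiomyocyte-like wells 0 of those 6 were called between runs.

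A few wells carried most of the complex I transcripts. The median kept well held 12.0 of them and the richest 919, and 54 wells, 5.23% of those kept, held 50% of the total. The 140 wells whose transcripts were over 10% mitochondrial made up 13.6% of kept wells and held 64.6% of the 7 genes' transcripts. The 94 unnamed wells held 52.8%, and the 939 cardiomyocyte-like wells held 47.2%. A sum over a plate therefore follows a small part of its wells. In unnamed wells the 7 genes took 6.08% ± 2.28 of all transcripts and in cardiomyocyte-like wells 0.806% ± 0.225 (SD, n = 7 plates each). Of the unnamed wells, 66 lay in a cluster led by ENSDARG00000080337 and ENSDARG00000082753. A further cluster of 71 wells was led by the same 2 transcripts. Its median cardiomyocyte marker share was 18.9%, and it counted as cardiomyocyte-like. Across cardiomyocyte-like wells these 2 transcripts followed the 7 genes, with mean correlations of 0.740 and 0.523 (below). The unnamed class was thus not formed apart from the level of the 7 genes, and its higher share is only a description.

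As a share of all transcripts in kept wells, the 7 genes summed to 1.61%, 1.06% and 1.13% in wild-type plates, against 2.08%, 2.06%, 1.37% and 1.06% in mutant plates. The means were 1.27% ± 0.297 (SD, n = 3) and 1.65% ± 0.510 (SD, n = 4), and the groups overlapped (exact permutation p = 0.343, two-sided). Within run 1 mutant plates differed by 0.466 percentage points, and within run 2 by 0.120. MT-ND5 took 0.0596%, 0.0575% and 0.0602% in wild type, against 0.0856%, 0.0778%, 0.0824% and 0.101% in mutant plates. MT-ND1 took 0.206%, 0.186% and 0.174% against 0.282%, 0.276%, 0.231% and 0.210%. For these 2 members every mutant plate lay above every wild-type plate, with the smallest possible exact permutation p of 0.0571 and an adjusted p of 0.229 over 8 tests. The same was true of 1 of the 6 other mitochondrial genes, MT-CO1, and of 4.68% of the 2798 genes tested. The other 5 members overlapped.

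In the median well, mutant plates stood above the wild-type plate in run 1, while in run 2 the genotypes overlapped. The median summed share was 0.442%, 0.415% and 0.418% in wild-type plates, against 0.898%, 0.907%, 0.378% and 0.467% in mutant plates. Both mutant plates of run 1 stood at about 0.9%, and those of run 2 lay on either side of the wild-type plates. Mutant minus wild type came to 0.460 percentage points within run 1 and 0.00617 within run 2 (pooled exact permutation p = 0.343, two-sided). The median mitochondrial share of a kept well moved in the same way, at 2.91% and 2.69% in the mutant plates of run 1 and 1.20% to 1.40% in the other 5 plates. Its part in the result was not tested.

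In cardiomyocyte-like wells 2 of the 7 genes, MT-ND5 and MT-ND1, were higher in mutant plates past the threshold. The fitted difference was positive for the other 5 as well, but those did not pass. Of 2164 genes tested, 3.97% were called in either direction and 2.36% higher (edgeR, adjusted p under 0.05, run as covariate). The members' median log2 fold change was 0.65, beside 0.03 over all genes. For the 6 other mitochondrial genes the median was 0.67, with 4 called and 5 positive. All 7 members passed the filter on low counts. The choice of these wells was not apart from the 7 genes, since the clustering kept the 2 transcripts without a symbol that followed them. The unnamed wells left out held 52.8% of the members' transcripts, and over all kept wells edgeR called no member (below).

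MT-ND5 stood at 232.1, 346.1 and 314.5 CPM in wild-type plates, against 442, 461, 547 and 534 CPM in mutant plates. The groups did not overlap, at 297.6 ± 58.9 (SD, n = 3) and 496 ± 52.2 CPM (SD, n = 4), with log2 fold change 0.79 (SE 0.16, edgeR adjusted p = 0.0107). MT-ND1 stood at 717, 1092 and 900 CPM in wild-type plates, against 1520, 1112, 1512 and 1346 CPM in mutant plates. It did not overlap either, although mutant plate 2 lay just above wild-type plate 2. Its means were 903 ± 187.4 (SD, n = 3) and 1372 ± 191.3 CPM (SD, n = 4), with log2 fold change 0.65 (SE 0.16, edgeR adjusted p = 0.0285).

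**Figure D2:**
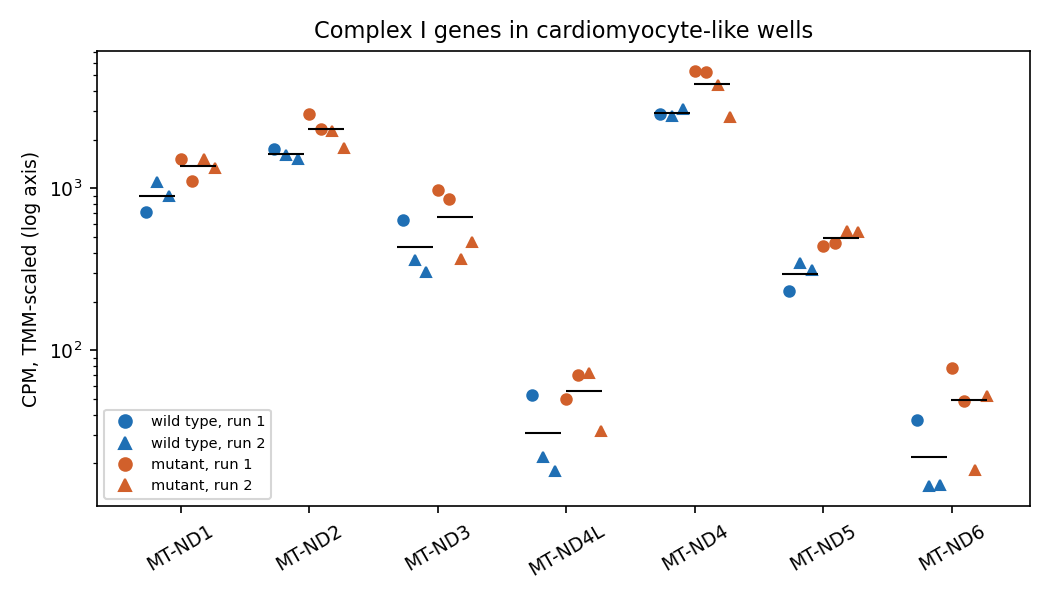
Level of each complex I gene in the summed cardiomyocyte-like wells of each plate (TMM-scaled CPM, log axis). Points are plates (circles run 1, triangles run 2), and lines are genotype means. All mutant plates lie above all wild-type plates for MT-ND1, MT-ND2 and MT-ND5.

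MT-ND2 was the remaining member without overlap, at 1757, 1619 and 1509 CPM in wild type, against 2902, 2329, 2273 and 1785 CPM in mutant plates, but it did not pass (log2 fold change 0.45, SE 0.14, edgeR adjusted p = 0.0946). Mutant plates lay wholly above wild-type plates for 3 of 7 members, for 4 of the 6 other mitochondrial genes and for 7.49% of all genes tested. MT-ND4 stood at 2896, 2801 and 3108 CPM in wild type, against 5284, 5238, 4360 and 2753 CPM in mutant plates. Mutant plate 4 was the lowest of all 7 plates and the other 3 mutant plates the highest (log2 fold change 0.50, SE 0.17, edgeR adjusted p = 0.126). MT-ND3 stood at 638, 362.1 and 303.2 CPM against 975, 861, 364.02 and 465 CPM, where the run 1 plates exceeded the run 2 plates within each genotype (log2 fold change 0.39, SE 0.16, edgeR adjusted p = 0.227).

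Counts of the scarce members were too low for a firm value. MT-ND4L averaged 30.8 ± 19.1 CPM over wild-type plates (SD, n = 3) and 56.1 ± 19.1 CPM over mutant plates (SD, n = 4), from 10 to 36 transcripts a plate. MT-ND6 averaged 22.02 ± 12.9 and 49.1 ± 24.5 CPM, from 7 to 25 transcripts a plate. Their log2 fold changes were 0.97 (SE 0.45, edgeR adjusted p = 0.276) and 1.05 (SE 0.50, edgeR adjusted p = 0.298), and both overlapped between genotypes. At an unadjusted p under 0.05, 6 of 7 members and 17.4% of all genes passed.

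Both calls were lost without the wells richest in mitochondrial transcripts, and without either of 2 wild-type plates. Wells over 10% mitochondrial made up 3.37%, 8.38% and 4.32% of cardiomyocyte-like wells in wild-type plates, against 11.7%, 12.2%, 11.4% and 5.38% in mutant plates. They held 16.3% to 37.1% of the 7 genes' transcripts in wild type, against 23.2% to 49.997% in mutant cardiomyocyte-like wells. Without them all 7 differences stayed positive, but 0 members were called in edgeR, against 3.21% of genes, and 2 passed unadjusted, against 16.8%. MT-ND5 then stood at 0.52 (adjusted p = 0.218) and MT-ND1 at 0.44 (adjusted p = 0.192), and MT-ND3 at 0.06. These wells were left out by a share that counts the 7 genes themselves. Leaving them out can thus narrow a difference by itself, and no conclusion is drawn from it. No member was called without wild-type plate 1, where MT-ND5 stood at 0.69 and MT-ND1 at 0.50, nor without wild-type plate 3, where they stood at 0.77 and 0.61 (1.42% and 2.21% of genes called). Without mutant plate 1 or mutant plate 3, 1 member was called (3.17% and 3.59% of genes), and without mutant plate 4, 4 were (2.61% of genes). The cardiomyocyte marker sum was lower in every mutant than in every wild-type plate, and its part in these differences was not tested. Leukocyte and macrophage markers in cardiomyocyte-like wells summed to 0.106, 0.0285 and 0.161 per 10000 transcripts in wild type, against 0.407, 0, 0.0388 and 0.0571 in mutant plates. Of the 7 matched genes 5 were detected, with MPEG1 and marco at 0. Fibroblast and epicardial markers summed to 1.56 to 2.02 in wild type, against 0.989 to 1.60 in mutant plates, with 5 of 7 genes detected and POSTN and TBX18 at 0. Endothelial and thrombocyte markers each stayed at or below 0.0571, and no erythrocyte marker matched a symbol.

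Within run 1 a single wild-type plate stood against a pair of mutant plates, so the spread comes from the mutant plates alone and no call is read from it. The fitted differences of all 7 members were positive there, with a median of 0.80. Among them were 0.89 for MT-ND1, 0.87 for MT-ND4 and 0.59 for MT-ND2. MT-ND5 stood at 232.1 CPM in the wild-type plate of run 1, against 442 and 461 CPM in its mutant plates (CPM as above). Within run 2, 0 of 6 members tested were called by edgeR, against 1.27% of genes, and 3 passed unadjusted, against 12.2%, with MT-ND5 at 0.70 (adjusted p = 0.128), MT-ND1 at 0.51 (adjusted p = 0.282) and MT-ND4 at 0.26 (adjusted p = 0.733). MT-ND6 did not pass the count filter there. The difference between runs was itself tested as an interaction: 0 of 7 members and 0.00% of 2164 genes passed in edgeR, with 0 members and 8.60% of genes at an unadjusted p under 0.05. The interaction was largest in size for MT-ND4L at 1.25 (SE 0.88) and smallest in p for MT-ND4, at -0.59 (SE 0.32, adjusted p = 0.624).

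Over all kept wells, unnamed wells included, 0 of 7 members were called, against 0.500% of the 2798 genes tested (edgeR). All 7 differences were again positive, with a median of 0.41 beside 0.03 over all genes, and 3 members and 12.7% of genes passed at an unadjusted p under 0.05. MT-ND5 stood at 0.62 (SE 0.14, adjusted p = 0.106), MT-ND1 at 0.41 (SE 0.12, adjusted p = 0.207) and MT-ND4 at 0.23 (SE 0.18, adjusted p = 0.646). DESeq2 called 1 member, MT-ND5, at 0.60 (adjusted p = 0.0311), and 1.82% of genes.

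**Figure D3:**
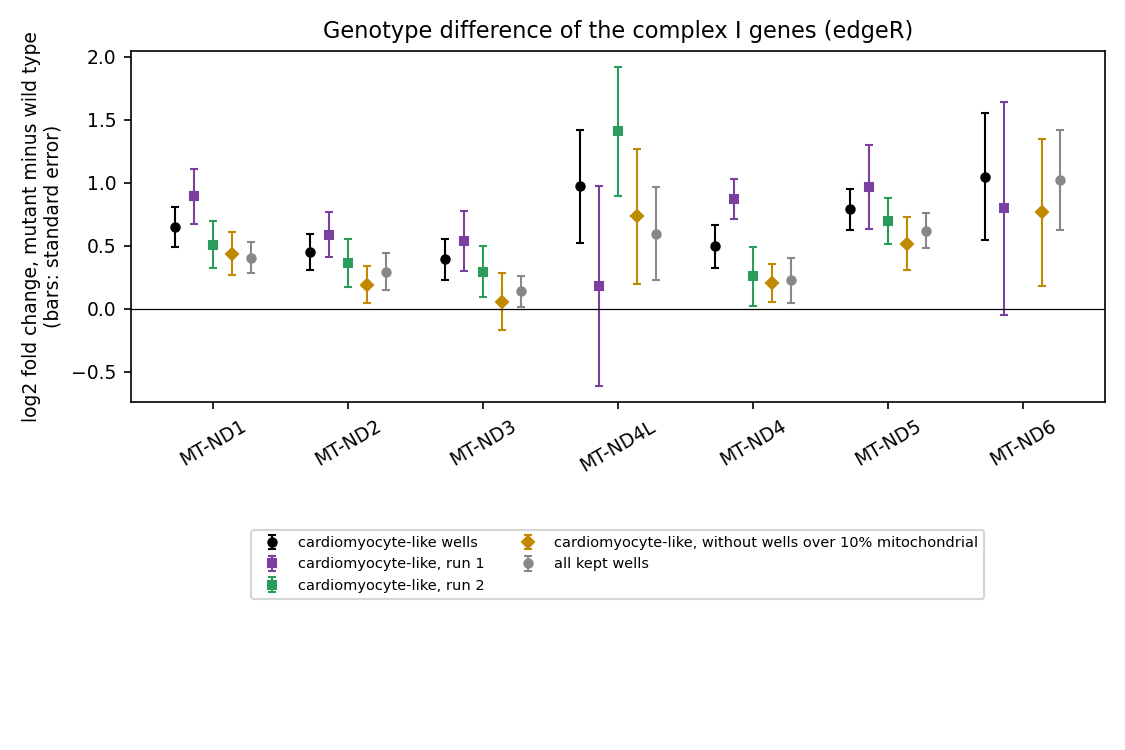
Log2 fold change, mutant minus wild type, of each complex I gene in 5 edgeR fits, with the standard error as bars. For run 1, with 1 wild-type plate, the bars come from the mutant plates. All fitted values are above 0, MT-ND5 and MT-ND1 are past the threshold in cardiomyocyte-like wells, and without wells over 10% mitochondrial no member is. MT-ND6 was not tested in run 2 alone.

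Among wells thinned to 1000 transcripts, MT-ND4 was found most often, and MT-ND4L and MT-ND6 least. A transcript of MT-ND4 was found in 81.8%, 78.2% and 81.8% of wells in wild-type plates and in 94.7%, 91.8%, 72% and 70.4% in mutant plates. The mutant plates thus lay above the wild-type plates in run 1 and below them in run 2. The means were 80.6% ± 2.08 (SD, n = 3) and 82.2% ± 12.8 (SD, n = 4; exact permutation p = 0.743, two-sided), and without thinning mutant minus wild type came to -1.06 percentage points. MT-ND5 was found in 22.7% ± 5.91 and 30.2% ± 3.25 of wells, and MT-ND1 in 43.5% ± 3.84 and 52.5% ± 6.74, with an adjusted exact permutation p of 0.229 for both. MT-ND4L was found in 3.36% ± 1.79 and 6.93% ± 2.52, and MT-ND6 in 3.85% ± 1.77 and 5.90% ± 0.966. Free RNA in the wells was not measured apart, so these are shares of wells with a transcript and not of cells that express the gene.

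The make-up of the mitochondrial transcripts changed with how mitochondrial a well was, and among the members this was seen for MT-ND4. MT-ND4 made up 17.9% of mitochondrial transcripts in the 384 wells under 1% mitochondrial, 13.7% in wells from 2 to 5%, and 12.1% in the 63 wells over 20%. By plate, its share in wells up to 2% was 17.2%, 14.8%, 18.004%, 17.4%, 17.5%, 17.9% and 13.5%. In wells over 10% it was 11.4%, 12.1%, 12.8%, 11.9%, 13.05%, 11.7% and 9.10%. It was lower in the richer wells of 7 of 7 plates, from 16.6% ± 1.76 to 11.7% ± 1.30 (change -4.87, SD 1.13; exact permutation p = 0.0156, the smallest possible, two-sided, adjusted p = 0.0438 over 14 tests). The change lay between -5.23 and -4.50 in all 10 alternatives tried. The comparison was chosen after the values were seen.

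**Figure D4:**
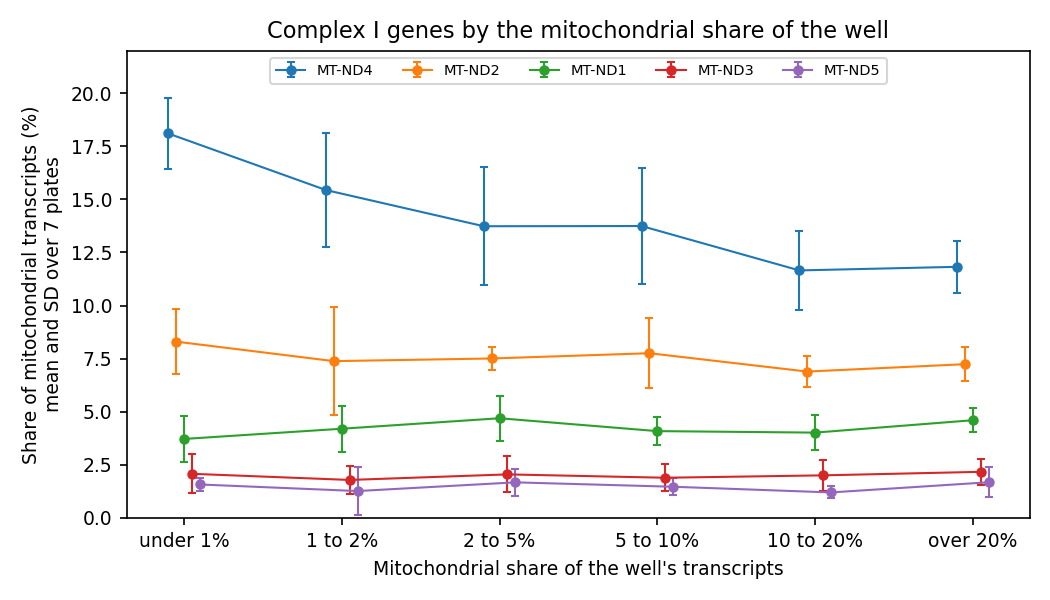
Share of mitochondrial transcripts taken by 5 complex I genes in wells grouped by their mitochondrial share (percent of the well's transcripts), as mean and SD over 7 plates. MT-ND4 falls from the poorest to the richest wells, and the other 4 genes stay within their spread.

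The sum of the 7 genes moved with MT-ND4, from 31.9% ± 2.35 to 27.2% ± 1.19, lower in 7 of 7 plates (exact permutation p = 0.0156, adjusted p = 0.0438). No change was detected for the other 6 members, whose adjusted exact permutation p ran from 0.156 for MT-ND1 to 0.892 for MT-ND4L. Outside complex I, MT-CO3 was higher in the richer wells by 2.86 percentage points and MT-CYB by 1.61, each in 7 of 7 plates, and MT-ATP6 changed by -1.90, lower in 7 of 7 (adjusted exact permutation p = 0.0438 each). MT-ND4 was also lower in unnamed than in cardiomyocyte-like wells of the same plate in 7 of 7 plates, at 11.9% ± 1.46 and 13.6% ± 1.59 (SD, n = 7). Unnamed wells were richer in the 7 genes, so this does not stand apart from the comparison above.

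Across cardiomyocyte-like wells the transcripts whose level most resembled the summed 7 genes were other mitochondrial ones and 2 without a symbol. Mitochondrial genes were found by symbol, so whether these 2 are mitochondrial as well was not settled here. The measure was the mean over 7 plates of the within-plate Spearman correlation over 939 wells thinned to 1000 transcripts, among genes found in at least 25% of them. It was 0.740 for ENSDARG00000080337, 0.733 for MT-ATP6, 0.715 for MT-CO3, 0.699 for MT-CO2, 0.694 for MT-CO1, 0.676 for MT-CYB and 0.523 for ENSDARG00000082753. The next genes were far below, with ENSDARG00000003041 at 0.0645, pabpc1a, a poly(A)-binding protein gene, at 0.0462 and ADSL, a purine synthesis gene, at 0.0360. The lowest values belonged to muscle genes, with mb (myoglobin) at -0.291, cmlc1 (a myosin light chain) at -0.284 and actc1a (cardiac actin) at -0.257. Muscle genes did not all lie there, since TTN (titin) stood at 0.0339 and MYH7 (a myosin heavy chain) at 0.0308. Wells of a plate share a library, and shares of a fixed total lean against each other, so these are descriptions without a test.

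Of 36 matched nuclear genes for complex I subunits, 35 were tested in cardiomyocyte-like wells. By edgeR and by DESeq2 0 passed in either direction, and 6 passed at an unadjusted p under 0.05 in edgeR, beside 17.4% of all genes tested. Of the 35 genes 11 were positive, and the median log2 fold change was -0.13, beside 0.03 over all genes. NDUFB1, an accessory membrane-arm subunit, had the smallest p, at 1066, 849 and 827 CPM in wild type, against 654, 580, 734 and 566 CPM in mutant plates, without overlap (log2 fold change -0.52, SE 0.16, edgeR adjusted p = 0.0737). NDUFA1 stood at -0.38, NDUFA3 at -0.44 and NDUFB10 at -0.35, all accessory subunits, with edgeR adjusted p of 0.163, 0.191 and 0.232. Of the 6 that passed unadjusted, 1 was positive: NDUFS1, an iron-sulphur subunit of the peripheral arm, at 0.48 (SE 0.21, edgeR adjusted p = 0.241), with overlapping genotypes and named after its value was seen.

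Of 13 matched assembly factors, 5 had counts enough to test, and 0 were called by edgeR or DESeq2 or passed unadjusted. ACAD9, needed to assemble the membrane arm in mammals, stood at 15.8, 15.998 and 16.2 CPM in wild type, against 40.5, 48.3, 34.2 and 23.1 CPM in mutant plates, without overlap (log2 fold change 1.02, SE 0.52, edgeR adjusted p = 0.330). NDUFAF6, an early assembly factor, stood at -0.96 (SE 0.58, edgeR adjusted p = 0.414). Of 20 matched genes for the synthesis, processing and stability of mitochondrial RNA, 7 were tested, 0 were called by edgeR or DESeq2 and 1 passed unadjusted, beside the same 17.4%. That gene was grsf1, which codes for a mitochondrial RNA-granule protein in mammals, at -0.61 (SE 0.24, edgeR adjusted p = 0.191). LRPPRC, which steadies mitochondrial mRNAs in mammals, stood at 0.84 (SE 0.40, adjusted p = 0.293), tfb2m, a mitochondrial transcription factor gene, at -0.88 (SE 0.57, adjusted p = 0.455), and HSD17B10, a subunit gene of mitochondrial RNase P, at -0.35 (SE 0.26, adjusted p = 0.542).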

How the data were processed

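CEL-seq2 libraries with a UMI (a random barcode per molecule) and spike-in RNA were made per the labels' protocols, and the submitters' processing notes list BWA 0.6.2. No genome build, annotation or counting rule is given in the sources used here. Deposited values are estimated counts, 1 per gene and well. All 857630 values above 0 (100.0%) matched, within 0.0051, a UMI number corrected for saturation among 4096 barcodes, a 6-base UMI, although the protocol names a shorter one. The largest number was 454 UMIs in a member, so its correction is moderate. Symbols covered 13087 of 16394 genes, and 13 mitochondrial symbols matched. Mitochondrial ribosomal RNAs matched none and are in no denominator of mitochondrial transcripts.

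Plate numbers follow accession order in a genotype and pair nothing. The 7 plates share the same well barcodes by design, and 0 kept wells had identical values. Runs are the flow cells that the files carry. No doublet caller was run, since wells received 1 cell each. Kept wells were clustered with scanpy 1.11.5 (2000 variable genes, 30 components, 15 neighbours, Leiden resolution 1) without the matched mitochondrial genes, hmga1a and spike-ins. A cluster was cardiomyocyte-like with a median marker share of at least 50% of that of all kept wells, no other type with more markers among its 10 leading genes, at least 3 markers detected and at least 15 wells. Names were thus rebuilt here. Estimates were summed per plate, rounded, TMM-scaled, filtered with filterByExpr and tested with edgeR 4.0.16 (quasi-likelihood F test, run as covariate, Benjamini-Hochberg over all genes, threshold 0.05). SEs come from the F statistic. The scripts were tested on simulated data. Shares were tested by exact permutation over plates (35 splits), without a run term. Alternatives included DESeq2 1.42.0 and limma 3.58.1 on log2(CPM + 1). Named genes were all 7 members, and up to 4 genes with the smallest p in each pathway list. The members and lists were chosen with earlier results of these data known. Sequences were not used here.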

Additional observations from a re-analysis of the deposited data

Results flagged for a closer look

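The share of thinned wells with an MT-ND4 transcript moved in opposite directions in the runs. It was higher in mutant than in wild-type plates by 11.4 percentage points in run 1, and the difference was -8.81 in run 2. All plates followed this split, and the difference between runs was not tested for this measure. The edgeR interaction for the MT-ND4 level had an adjusted p of 0.624.

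Wells under 1000 transcripts, which enter no comparison, held 26.8% of all transcripts of the 7 genes. In these 1655 wells the 7 genes made up 29.3% of mitochondrial transcripts and 3.86% of all transcripts. By plate, MT-ND4 took 13.03% ± 1.07 of their mitochondrial transcripts and MT-ND3 2.33% ± 0.803 (SD, n = 7), beside 12.6% ± 1.34 and 2.07% ± 0.606 in kept wells.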

How the results depend on the processing

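No paired analysis was possible because the labels give no replicate numbers. In cardiomyocyte-like wells 2 members were called, beside 86 of 2164 genes. The number was 0 without a filter on low counts (83 of 13383 genes called), without the run term (48 of 2164) and in run 2 alone (36 of 2830). It was also 0 in thinned wells (78 of 1044, with 5 members tested) and in limma with equal weight of wells (54 of 2164). Without wells over 10% mitochondrial it was 0 too (70 of 2180), and with at least 2000 transcripts per well it was 1 (55 of 1848). Leaving out 1 plate gave 0 to 4, where from 40 of 2808 to 94 of 2344 genes were called. MT-ND1 lost its call in 11 and MT-ND5 in 9 of 20 alternatives, and the sign stayed positive in all of them. Spike-in scaling moved the median of all genes to 0.25 and called 3 members, beside 65 of 2164 genes. Over all kept wells DESeq2 (51 of 2798 genes called) and the minimum of 500 transcripts (20 of 2826) each called 1 member. MT-ND3 turned to -0.0164 with at least 2000. In all kept wells 2 members differed between runs, beside 130 of 2798 genes and 5 of the 6 other mitochondrial genes. There MT-ND1 turned to -0.229, and the interactions of MT-ND5 and MT-ND6 became 0.145 and -0.651. Some genotype differences in the share of mitochondrial transcripts, all far from the threshold, changed sign: MT-ND5 to -0.0441 as a mean over wells, MT-ND1 to -0.00348 in cardiomyocyte-like wells and MT-ND4L to -0.00312 with at least 2000 transcripts. Leaving out 1 plate gave -0.286 to 0.306 percentage points for MT-ND1, -0.484 to 0.0654 for MT-ND2, -0.317 to 0.314 for MT-ND3, -0.0119 to 0.0534 for MT-ND4L and -0.0665 to 0.402 for MT-ND5. For detection, MT-ND4 turned to -0.422 with at least 2000 transcripts and -1.06 without thinning, and leaving out 1 plate gave -2.56 to 5.54 percentage points for MT-ND4 and -0.269 to 3.42 for the sum. The cause was not tested. Leaving ribosomal RNA out of the denominator, and a minimum of 500 transcripts in cardiomyocyte-like wells, were not run, since no such symbol matched and clusters cover kept wells only. Counts of MT-ND6 and MT-ND4L limit what can be said of them.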
